A study of Mus musculus with 6 samples.

Results

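The mouse Zfp genes described here are the genes whose symbol in the array annotation is Zfp followed by digits only, leaving out Zfp42. This symbol named 258 genes, and 137 of them were kept because at least 1 of their probes had an exported signal above 150 on at least 1 of 6 arrays. The 137 genes were thus selected on their measured signal, and the other 121 stayed under the threshold. The symbol Zfp names proteins with zinc fingers but not a single family, so the 137 genes hold DNA-binding repressors, RNA-binding proteins and ubiquitin ligases.

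The study derived induced pluripotent stem (iPS) cells from mice that lack fumarylacetoacetate hydrolase (FAH), an enzyme of tyrosine breakdown, and corrected them by gene transfer. FAHgc-iPS lines #7.1 and #7.2 were subcloned from line #7 after a lentiviral vector had brought in a FAH cDNA with EGFP under the SFFV promoter. FAH-/--iPS lines #4 and #7 had been made from FAH-/- fibroblasts with pMX gamma-retroviral vectors that carried Oct4, Sox2, Klf4 and c-Myc, and they were male and grown on fibroblast feeder cells. OG2 ES cells carry an Oct4-GFP reporter and served as the pluripotent reference, and FAH-/- MEFs, the starting fibroblasts, were a mix from female and male fetuses. Each of these 6 samples was hybridized once to an Illumina mouse-8 V2 BeadChip, so the 4 iPS lines were the only replicates, and 3 of them shared 1 origin. P-values therefore measured only the spread between these lines.

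Most zinc fingers in these proteins are of the C2H2 type, in which a zinc ion holds together a small fold whose helix contacts DNA. Many of the genes also encode a KRAB domain, which binds the corepressor TRIM28 (KAP1), and TRIM28 in turn brings the histone methyltransferase SETDB1 to the bound site. In mouse ES cells this system silences retroviruses and other retroelements. KRAB zinc finger genes have multiplied in rodents and often lie side by side in clusters of related copies.

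The 10 fibroblast markers were all above background in the MEFs, with a summed signal of 42329, against 1524 to 1968 on the 5 pluripotent arrays, where 6 or 7 of the 10 were above background. The 10 pluripotent markers were all above background on the pluripotent arrays and 3 of them in the MEFs. Fah, the gene disrupted in all samples but the ES cells, had a log2 signal of 7.11 and 6.99 in the gene-corrected lines #7.1 and #7.2, 7.11 and 7.24 in the uncorrected lines #4 and #7, 8.89 in ES cells and 6.29, not above background, in MEFs. It was thus highest in the unmutated cells and no higher after correction, and whether its probe lies in the transferred cDNA was not tested. The feeder cells are fibroblasts too, and their part in any signal of the iPS lines was not tested.

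The symbol rule passed the threshold in 53.1% of Zfp genes and in 47.7% of all 16593 genes of the array. The related Zbtb genes passed in 13 of 24 cases, the Zscan genes in 4 of 7 and the Klf genes in 9 of 16. Zfp106, Zfp24 and Zfp345 lay just inside the threshold, with highest exported signals of 150.07, 150.39 and 150.49. Zfp595, Zfp202 and Zfp382 lay just outside, at 149.7, 149.3 and 148.3. Zfp423, a regulator of fat and neural precursors, was outside at 147.8, and Zfp217, Zfp352, Zfp503, Zfp536, Zfp568 and Zfp622 were above background on no array.

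The same exported signal did not stand for the same level on every array. After normalization, an exported 150 corresponded to a log2 signal of 6.85, 6.84, 6.75 and 7.18 in lines #7.1, #7.2, #4 and #7, 7.16 in ES cells and 6.56 in MEFs. The threshold was thus passed most easily on the MEF array. Above it were 93, 91, 106 and 71 of the 137 genes in lines #7.1, #7.2, #4 and #7, 66 in ES cells and 117 in MEFs. Measured against each array's own background the numbers were closer, with 127, 129, 132 and 134 genes in those iPS lines, 116 in ES cells and 126 in MEFs. In all, 55 genes passed 150 on all 6 arrays and 103 were above background on all 6. Of the 137 genes, 94 passed on the MEF array and on an iPS array, 20 passed only on pluripotent arrays and 23 passed only on the MEF array.

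**Figure D1:**
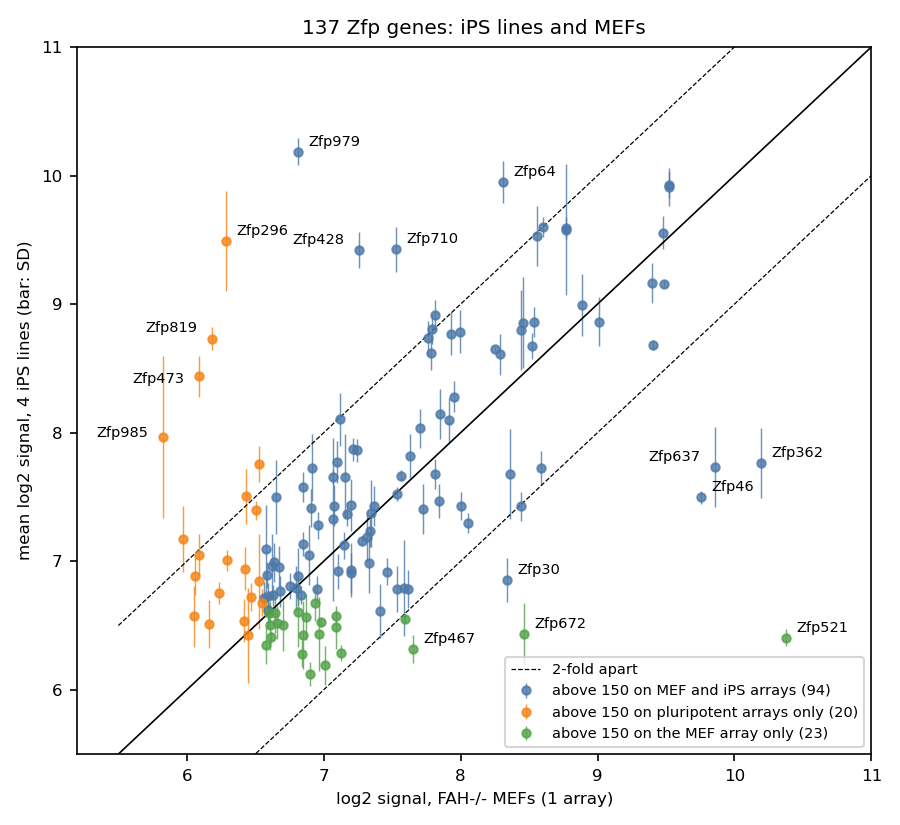
Mean log2 signal of the 137 Zfp genes in the 4 iPS lines (vertical axis, bars are SD) against the log2 signal in FAH-/- MEFs (horizontal axis, 1 array). Points are colored by the arrays on which the exported signal passed 150, the solid line marks equal signal and the dashed lines 2-fold. Most genes lie between the dashed lines, and Zfp979 and Zfp521 lie farthest from them.

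The first comparison asked how Zfp genes differ between iPS lines and the fibroblasts they came from. Among the 94 genes above 150 on both sides, Zfp979, Zfp428, Zfp710, Zfp64, Zfp451 and Zfp869 were higher in the iPS lines, and Zfp362, Zfp46, Zfp637, Zfp30 and Zfp943 were lower. These 11 genes are 11.7% of the 94. Of all 5896 genes above 150 on the MEF array and an iPS array, 34.2% were called, 18% higher and 16.1% lower. A call required an adjusted p below 0.05 from limma over all 10682 genes tested, and at least 2-fold. Over all 137 Zfp genes 13 were called higher and 9 lower, or 16.1%, against 26% of all genes tested (13.1% higher and 12.9% lower) and 35.1% of genes above 150 on any array. The rule had fixed the direction of those that passed 150 on 1 side only.

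The sizes of the differences were compared in the same way. A difference of at least 0.5 on the log2 scale was seen in 42.6% of the 94 Zfp genes and in 61.2% of the 5896 genes. The median size was 0.36 in the 94 Zfp genes and 0.68 in all such genes. The 5896 genes were not matched to the Zfp genes for signal level, and the processing used here shrinks the differences of dim genes. The part of signal level in these gaps was not tested. Their median signed difference was 0.17, against 0.09 in all such genes. A further 28 of the 94 had an adjusted p below 0.05 from limma but stayed within 2-fold, as did 1958 of the 5896 genes. When the arrays were brought to a common median instead of common quantiles, 11 of the 137 Zfp genes were called higher and 17 lower, and 15 of the 94 were called in either direction. No count with this scaling was made for the 5896 genes. The split over all genes was then 1050 higher and 1849 lower, against 1400 and 1380 in the quantile-normalized values.

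**Figure D2:**
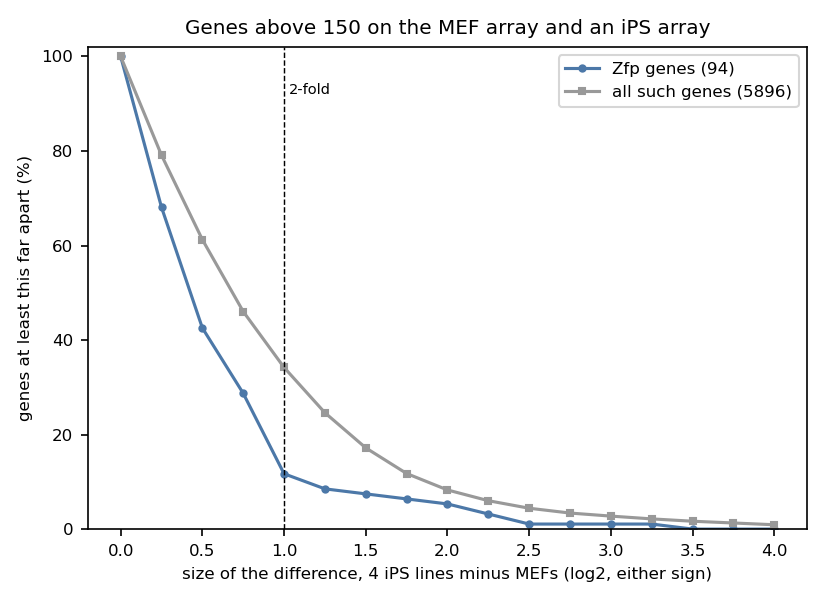
Share of genes (vertical axis, percent) whose difference between the 4 iPS lines and FAH-/- MEFs was at least the size on the horizontal axis (log2, either sign). The 94 Zfp genes lie below all 5896 genes that passed the same threshold on both sides, with 11.7% against 34.2% at 2-fold (dashed line). These sets were not matched for signal level.

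Zfp979 had a log2 signal of 10.33, 10.14, 10.19 and 10.09 in lines #7.1, #7.2, #4 and #7 and 10.24 in ES cells, against 6.81 in MEFs. The 5 pluripotent arrays lay within 0.25 of each other and far above the MEF array. The iPS lines exceeded MEFs by 3.37 log2 units (SE 0.15, adjusted p = 5.1e-09 by limma), or 10.3-fold, with all 4 lines above the MEF value. The gene lies on chromosome 4, from 147611936 to 147642508 in mouse build GRCm38.p6.

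Its nearest protein-coding neighbor, Zfp985 (chromosome 4, 147553277 to 147585201), had 7.57, 7.64, 8.91 and 7.76 in the same 4 lines and 10.25 in ES cells, against 5.83 in MEFs, where it was not above background. All pluripotent arrays were above the MEF array, with at least 3.19-fold in the mean of the iPS lines, but they differed among themselves by more than those of Zfp979 did. The gene passed 150 on pluripotent arrays only, so the direction against MEFs was set by the rule. RefSeq lists 16 Zfp genes with numbered symbols in this stretch of chromosome 4. Zfp987 and Zfp933 were kept too, Zfp982 was under the threshold at 113.95, and 11 were not named by the array annotation. Probe sequences were not used here, so signal shared between such close relatives could not be separated.

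The promoters of Zfp979 and Zfp985 are shown because both of these neighbors were higher on every pluripotent array than in MEFs. The 250 bases before each start site, from RefSeq on build GRCm38.p6, are given 5′ to 3′, and capitals mark the motif CCAAT, which here lies on the other strand and reads ATTGG. The Zfp979 stretch is chr4:147642509-147642758 on the minus strand and the Zfp985 stretch is chr4:147553027-147553276 on the plus strand.
Zfp979: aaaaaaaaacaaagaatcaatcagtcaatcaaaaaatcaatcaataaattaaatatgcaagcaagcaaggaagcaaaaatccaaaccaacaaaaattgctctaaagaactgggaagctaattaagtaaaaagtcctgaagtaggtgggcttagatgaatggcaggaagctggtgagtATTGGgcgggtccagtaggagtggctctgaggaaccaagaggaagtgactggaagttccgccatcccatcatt
Zfp985: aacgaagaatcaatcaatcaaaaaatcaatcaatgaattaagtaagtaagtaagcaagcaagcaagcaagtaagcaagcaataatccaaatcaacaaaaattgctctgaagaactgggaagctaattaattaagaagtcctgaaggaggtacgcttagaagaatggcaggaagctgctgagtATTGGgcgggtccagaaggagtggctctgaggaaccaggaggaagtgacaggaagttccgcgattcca
A global alignment had 216 identical bases in 266 columns, or 81.2%, and the longest run shared by both was 21 bases. The motif started 73 bases before the Zfp979 start and 68 bases before the Zfp985 start. These stretches held 2 and 5 CpG dinucleotides. Aligned with the promoters of Zfp819 and Zfp451, which are shown further on, each had 44.9% to 48.6% identical columns.

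Zfp428 had 9.39, 9.33, 9.63 and 9.34 in lines #7.1, #7.2, #4 and #7, against 7.26 in MEFs. No iPS line came near the MEF level, and the difference was 2.17 (SE 0.15, adjusted p = 2.7e-07 from limma). A second probe of Zfp428 was dim, with 6.28 to 6.34 in the iPS lines and 6.17 in MEFs, and moved by only 0.15. Zfp710 had 9.39, 9.36, 9.68 and 9.28 in the iPS lines, against 7.53 in MEFs, a difference of 1.90 (SE 0.17, adjusted p = 1.4e-06 from limma). The ES cell value of 9.92 was above all 4 iPS lines.

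Zfp64, whose human counterpart keeps the MLL gene active in leukemia cells, had 10.05, 10.08, 9.72 and 9.95 in the iPS lines, against 8.31 in MEFs. The difference was 1.64 (SE 0.16, adjusted p = 3.9e-06 from limma). Its other probes moved the same way, by 1.67 and 1.09, so all 3 probes of this gene were higher in the iPS lines.

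Zfp451 encodes a SUMO ligase, as shown for human ZNF451. It had 9.04, 8.95, 8.76 and 8.90 in the iPS lines, against 7.81 in MEFs, a difference of 1.10 (SE 0.15, adjusted p = 5.2e-05 from limma). Zfp869 had 8.84, 8.71, 8.96 and 8.72, against 7.79, a difference of 1.02 (SE 0.15, adjusted p = 1.0e-04 from limma). Both groups of values were separate, but these were the smallest called rises among genes above 150 on both sides. With median scaling they were 0.80 for Zfp451 and 0.71 for Zfp869, under 2-fold. The Zfp451 promoter is shown as an example of the ETS motif CCGGAAG, whose share among Zfp promoters is given further on. Capitals mark it on the other strand, where it reads CTTCCGG, in chr1:33814596-33814845 on the minus strand of GRCm38.p6.
Zfp451: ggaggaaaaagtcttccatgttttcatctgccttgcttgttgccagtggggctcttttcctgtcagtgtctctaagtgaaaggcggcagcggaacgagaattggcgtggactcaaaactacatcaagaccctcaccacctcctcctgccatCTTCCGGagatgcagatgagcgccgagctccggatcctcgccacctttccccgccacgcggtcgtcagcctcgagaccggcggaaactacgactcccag
The motif lay 99 bases before the start, and the stretch held 17 CpG dinucleotides.

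Among the genes that fell, Zfp362 had 7.90, 8.03, 7.40 and 7.72 in lines #7.1, #7.2, #4 and #7, against 10.20 in MEFs. The difference was −2.43 (SE 0.21, adjusted p = 1.0e-06 from limma), or 5.40-fold. Zfp46 had 7.53, 7.50, 7.53 and 7.42, against 9.76, a difference of −2.26 (SE 0.14, adjusted p = 6.8e-08 from limma). Its 4 iPS values were the closest together of these 5 genes (SD 0.05, n = 4).

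Zfp637 had 7.47, 7.46, 8.06 and 7.94 in lines #7.1, #7.2, #4 and #7 and 7.24 in ES cells, against 9.86 in MEFs. All iPS values were far below the MEF value, and the gene-corrected lines were below the uncorrected ones. The difference from MEFs was −2.12 (SE 0.22, adjusted p = 6.6e-06 from limma). Zfp30, a KRAB zinc finger gene linked to airway neutrophil responses in mice, had 6.60, 6.97, 6.90 and 6.95, against 8.34 (difference −1.48, SE 0.16, adjusted p = 1.1e-05 from limma). Zfp943 had 7.35, 7.33, 7.58 and 7.45, against 8.44, a difference of −1.01 (SE 0.15, adjusted p = 9.7e-05 from limma). It lay at the 2-fold limit, and the difference was −0.51 for the mean of its probes.

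**Figure D3:**
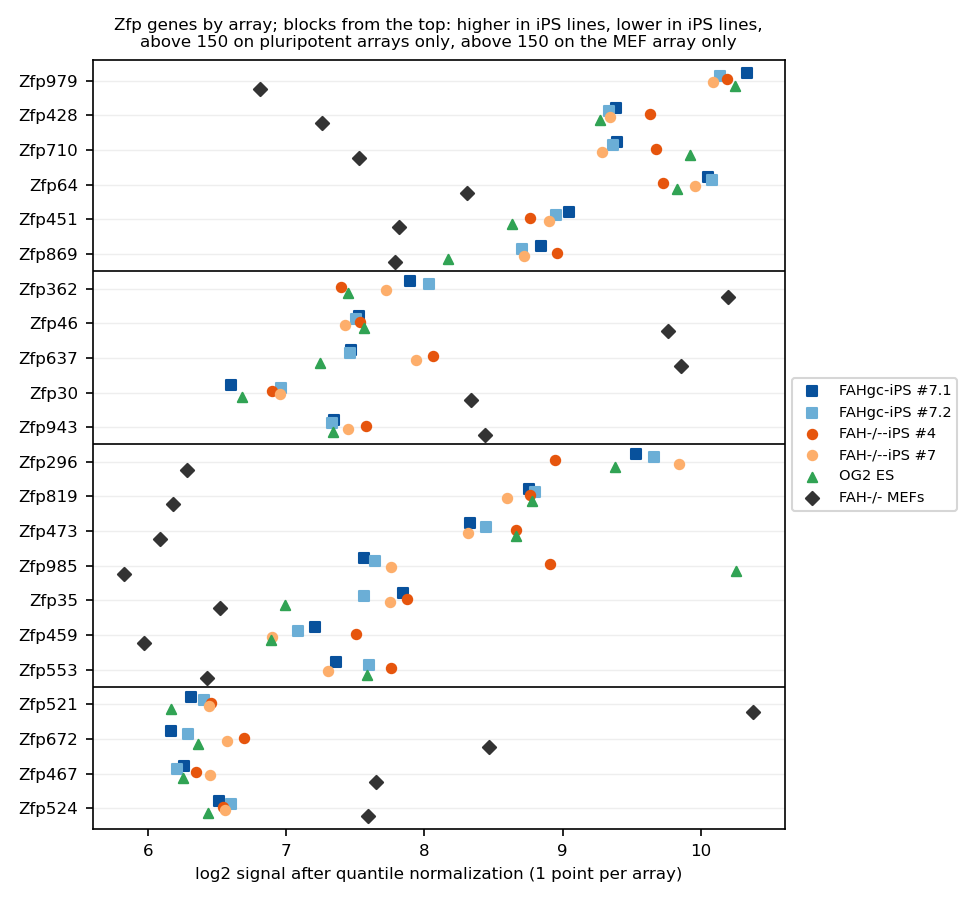
Log2 signal of 22 Zfp genes (rows) on each of the 6 arrays (horizontal axis, 1 point per array). The blocks hold the 6 genes called higher and the 5 called lower in iPS lines among those above 150 on both sides, and then 7 and 4 genes whose direction the threshold fixed. The MEF point stands apart from the iPS points in all 22 rows, and the Zfp985 row has the widest spread among pluripotent arrays.

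The genes that passed 150 on pluripotent arrays only are given as values. Zfp296, a reprogramming and pluripotency factor, had 9.53, 9.66, 8.94 and 9.84 in lines #7.1, #7.2, #4 and #7 and 9.37 in ES cells, against 6.29 in MEFs, where it was not above background. The mean of the iPS lines was at least 9.17-fold higher, and a second probe, with 9.03, 8.92, 8.53 and 9.10 in the iPS lines, was likewise not above background in MEFs, at 5.81. Zfp473, named ZFP100 in humans, where it takes part in histone pre-mRNA processing with the U7 snRNP, had 8.33, 8.45, 8.66 and 8.31 in the iPS lines, against 6.09 in MEFs, at least 4.41-fold. Both genes were above background on every pluripotent array and not on the MEF array.

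Zfp819, a KRAB protein that binds KAP1 and is made in ES cells, had 8.76, 8.80, 8.76 and 8.60 in the iPS lines and 8.78 in ES cells, against 6.19 in MEFs. The 5 pluripotent arrays were close together, and the mean of the iPS lines was at least 5.41-fold above the background limit of the MEF array. Its promoter is shown because it holds the E-box CACGTG more than once. Capitals mark both copies in chr7:43606919-43607168 on the plus strand of GRCm38.p6.
Zfp819: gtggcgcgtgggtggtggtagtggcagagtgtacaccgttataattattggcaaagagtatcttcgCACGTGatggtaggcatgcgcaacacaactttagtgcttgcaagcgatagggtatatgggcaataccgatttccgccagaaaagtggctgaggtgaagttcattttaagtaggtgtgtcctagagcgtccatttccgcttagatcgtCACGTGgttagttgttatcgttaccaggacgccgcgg
The copies started 184 and 37 bases before the start site, and 7.15% of all promoters in the RefSeq table had at least 1 copy.

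Zfp35 had 7.85, 7.56, 7.87 and 7.75 in lines #7.1, #7.2, #4 and #7 and 6.99 in ES cells, against 6.53 in MEFs. Zfp459 had 7.21, 7.09, 7.51 and 6.90 in the iPS lines, against 5.97, not above background, in MEFs. For Zfp553 the values were 7.36, 7.60, 7.76 and 7.30 in the iPS lines and 6.43 in MEFs. Among these 3 genes the iPS lines were higher than MEFs without exception, a direction that the threshold had fixed.

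The 23 genes above 150 on the MEF array alone were led by Zfp521, a cofactor of mesenchymal and neural precursor cells. It had 6.31, 6.41, 6.46 and 6.44 in the iPS lines and 6.17 in ES cells, where it was not above background, against 10.38 in MEFs. Zfp467, which favors fat over bone formation, had 6.26, 6.21, 6.35 and 6.45 in the iPS lines, against 7.65 in MEFs, and 2 of the 4 lines were above background. Zfp672 had 6.17, 6.29, 6.69 and 6.57, against 8.47, and Zfp524 had 6.52, 6.60, 6.54 and 6.56, against 7.59. Zfp810 and Zfp62 had iPS means of 6.28 and 6.49, against 7.13 and 7.09. All 6 were lower on every pluripotent array than in MEFs, a direction that the threshold had fixed. Fibroblast markers also moved with these genes, as given above, and their part was not tested.

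Of 19 Zfp genes listed for pluripotent or early embryonic cells, 9 were among the 137, while 4 were under the threshold, 5 were not named by the array annotation and 1 had a symbol outside the rule. Of the 9, 4 were called higher in the iPS lines (Zfp296, Zfp819, Zfp459 and Zfp553) and 0 lower. The threshold had fixed the direction of all 4, so this count says nothing about direction. Called higher and lower were 13.1% and 12.9% of all genes tested, and 17.7% and 17.4% of genes above 150 on any array. Without background correction Zfp459 and Zfp553 were not called, and Zfp553 was not called on the mean of its probes. Zfp281, a zinc finger factor that represses Nanog, had 8.57, 8.73, 8.73 and 8.91 in the iPS lines, against 7.76 in MEFs, a difference of 0.97 (SE 0.15, adjusted p = 1.8e-04 from limma). Zfp207 (BuGZ), a kinetochore protein, had 9.68, 9.71, 9.20 and 9.53, against 8.56, a difference of 0.97 (SE 0.19, adjusted p = 8.8e-04 from limma). Both lay just under 2-fold, and so did Zfp472 with 0.98 and Zfp574 with 1.00 after rounding. Zfp131 had 9.37, 9.59, 9.63 and 9.63, against 9.48, a difference of 0.08 that was within the spread of the lines. Zfp809, which recruits TRIM28 to the primer binding site of retroviruses, had 6.89, 6.85, 7.37 and 7.08, against 6.89 in MEFs, so lines #7.1 and #7.2 were near the MEF value.

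Of 11 genes listed for mesenchymal or differentiating cells, 5 were among the 137, and 2 of these, Zfp521 and Zfp467, were called lower with a direction fixed by the threshold, against 12.9% of all genes tested and 17.4% of genes above 150 on any array. Besides Zfp521 and Zfp467, Zfp36 (tristetraprolin), which promotes mRNA decay, had 9.22, 9.04, 8.40 and 8.77 in the iPS lines, against 8.45 in MEFs, and the groups overlapped. Zfp148 had 7.09, 7.38, 7.29 and 7.18, against 7.34, and overlapped too. Zfp219 was higher in all iPS lines, with 8.75, 8.78, 8.98 and 8.57 against 7.93, a difference of 0.84 (SE 0.16, adjusted p = 9.1e-04 from limma), which is under 2-fold.

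Of 12 genes listed for RNA and general functions, 6 were among the 137, and Zfp451 was the 1 called, against 26% of all genes tested. Zfp91, a ubiquitin ligase, had 7.95, 7.75, 7.91 and 7.84 in the iPS lines, against 7.24 in MEFs, a rise under 2-fold. Zfp326, a subunit of the DBIRD complex of splicing and elongation, had 9.12, 9.19, 9.16 and 9.16, against 9.49. Zfp410, an activator of Chd4, was among the 3 steadiest of all 137 genes, with Zfp658 and Zfp82, and its 6 arrays spanned 0.22 on the log2 scale (7.63, 7.65, 7.73 and 7.66 in the iPS lines, 7.51 in ES cells and 7.57 in MEFs). Zfp106 had 6.85, 6.79, 6.71 and 6.66, against 6.23 in MEFs, and Zfp277 had 9.98, 10.01, 9.69 and 9.96, against 9.53. A dimmer second probe of Zfp277 went the other way, with a difference of −0.38 from MEFs, against 0.39 on the brighter probe.

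The corepressor machinery that KRAB zinc finger proteins use was listed separately, with 23 genes, of which 19 were on the array and 18 were tested. In the iPS lines 8 of the 18 were called higher than in MEFs and 0 lower, against 13.1% and 12.9% of all genes tested. For genes above 150 on any array the shares were 17.7% and 17.4%. Trim28 itself had 12.98, 12.98, 12.95 and 12.64 in lines #7.1, #7.2, #4 and #7, against 10.65 in MEFs, a difference of 2.24 (SE 0.16, adjusted p = 3.1e-07 from limma). Setdb1, the histone methyltransferase, differed by 1.32, Dnmt1, the maintenance DNA methyltransferase, by 1.66, and its partner Uhrf1 by 2.76. Smarcad1, Morc3, Morc2a and Hdac1 were higher by 2.08, 1.68, 1.15 and 1.13. Against ES cells 0 of the 18 were called by limma, 3 had an unadjusted p below 0.05, and Hdac1 had an adjusted p of 0.044 at −0.57, within 2-fold.

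The second comparison asked whether Zfp genes of the iPS lines matched those of OG2 ES cells. Of the 137 genes 1 was called by limma, 0.73%, against 0.983% of all 10682 genes (0.44% higher and 0.543% lower). This gene, Zfp985, was lower in all 4 iPS lines, by −2.28 (SE 0.39, adjusted p = 0.0076 from limma), or 4.85-fold, with the values given above. Line #4 stood nearest to the ES cells, and lines #7.1, #7.2 and #7 lay together below it. The call was lost with lines #4 and #7 alone as the iPS group (−1.92, adjusted p = 0.20) and with a normexp offset of 16 (−2.47, adjusted p = 0.070). Its neighbor Zfp979 differed from ES cells by −0.06 (SE 0.15, adjusted p = 0.87).

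A further 8 of the 137 Zfp genes had an adjusted p below 0.05 from limma against ES cells and stayed within 2-fold, as did 357 of all 10682 genes and 327 of 7918 genes above 150 on any array. All 8 were higher in the iPS lines, and for Zfp35 and Zfp870 the rule had fixed this direction. The 357 and 327 genes were not split by direction. Of all 137 Zfp genes, 88 were higher in the iPS lines than in ES cells, as were 4222 of the 7918 genes. The rule could be met on any of 4 iPS arrays but on only 1 ES array, for the Zfp genes and the 7918 genes alike. Its part in these counts was not tested. Zfp39 had 7.06, 7.07, 7.08 and 7.28 in lines #7.1, #7.2, #4 and #7, against 6.25 in ES cells, where it was not above background, and 7.15 in MEFs. The MEF value thus lay among those of the iPS lines, and the difference from ES cells was 0.88 (SE 0.15, adjusted p = 0.0069 from limma). Zfp251 and Zfp282 were above ES cells by 0.73 and 0.65. Zfp386 and Zfp334 were not above background in ES cells, at 6.03 and 6.15, and had iPS means of 6.67 and 6.79. These 4 genes had higher values in MEFs than in ES cells. For Zfp386, which passed 150 on the MEF array only, the rule had fixed this order. A cause for the order of these values, or of those of Zfp39, was not tested. Zfp869 was higher by 0.63, with 8.17 in ES cells. Zfp35 and Zfp870, which passed 150 only in iPS lines, had iPS means of 7.76 and 7.01, against 6.99 and 6.29 in ES cells, where Zfp870 was not above background.

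A second probe of Zfp330 was above background on the ES cell array only, with 6.26, 6.01, 6.10 and 6.11 in the iPS lines, 9.37 in ES cells and 6.12 in MEFs. The brighter probe of the gene did not show this, with 9.70, 9.57, 9.50 and 9.59 in the iPS lines and 9.56 in ES cells. This gene was chosen after its values were seen. Of the 48 Zfp genes with several probes 37 had a second probe above background on some array, and among these second probes 2, those of Zfp428 and Zfp334, were over 1 log2 unit from the main probe in the difference from MEFs. Zfp521 and Zfp943 also had a second probe that far from the main one (−0.14 and −0.002), which was above background on no array. Zfp334 moved by −0.83 on its main probe and by 0.20 on the other.

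The ES cells were also set beside the MEFs, with 1 array each and no test. Of 136 Zfp genes above background on either array 14 were at least 2-fold higher in ES cells and 16 lower, against 14.6% and 15.1% of all 9624 such genes (29.7% in either direction). Among Zfp genes above background on both arrays, Zfp979 was higher by 3.43 on the log2 scale and Zfp362 differed by −2.75, the largest differences in each direction.

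The third comparison set the gene-corrected lines #7.1 and #7.2 against the uncorrected lines #4 and #7. None of the 136 Zfp genes tested was called by limma, and neither was any of 9796 genes (0%). At an unadjusted p below 0.05 from limma were 16 of the 136 Zfp genes and 444 of the 9796 genes. Among 7587 genes above 150 on any array, 363 were. The difference was above 0 in 46 of the 136, 4955 of the 9796 and 3790 of the 7587. Its median was −0.08 in the Zfp genes and 0.002 in all genes tested. The differences of the Zfp genes ran from −0.73 for Zfp985 to 0.54 for Zfp36. Both corrected lines came from line #7, so correction and descent from line #7 cannot be told apart here. Without line #7, line #4 was the only uncorrected sample and the spread came from lines #7.1 and #7.2 alone. The count of called genes was then 29, and Zfp985, which was highest in line #4, was the 1 Zfp gene among them (−1.30).

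Single lines were compared without a test. Between line #7.1 and its parent #7, 0 of 134 Zfp genes were at least 2-fold apart, against 0.111% of all genes, with a range from −0.70 for Zfp292 to 0.99 for Zfp365. Between line #7.2 and line #7, 0 of 136 were, against 0.011%, with a range from −0.51 for Zfp3 to 0.43 for Zfp276. Between line #4 and line #7, 3 of 135 were, all higher in line #4, against 0.428% of all genes.

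These 3 genes were Zfp365, Zfp985 and Zfp532. Zfp365, whose human counterpart binds DISC1, had 7.97 in line #4 and 6.78 in line #7, and the sister subclones parted, with 7.76 in line #7.1 and 6.79 in line #7.2. ES cells were between them at 7.40 and MEFs at 7.07. Zfp532, whose human counterpart can be fused to NUT in midline carcinoma, had 10.34 in line #4, against 9.24 in line #7, and 9.35 and 9.38 in lines #7.1 and #7.2. Its second probe gave 9.48 in line #4, against 8.45 in line #7, so both probes set line #4 above the rest.

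Zfp985 was at 8.91 in line #4, against 7.76 in line #7. Zfp296 was 0.89 lower in line #4, with 8.94 against 9.84, still far above MEFs. Zfp292, at 8.35, was lowest in line #7.1, against 8.84, 8.97 and 9.04 in lines #7.2, #4 and #7.

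**Figure D4:**
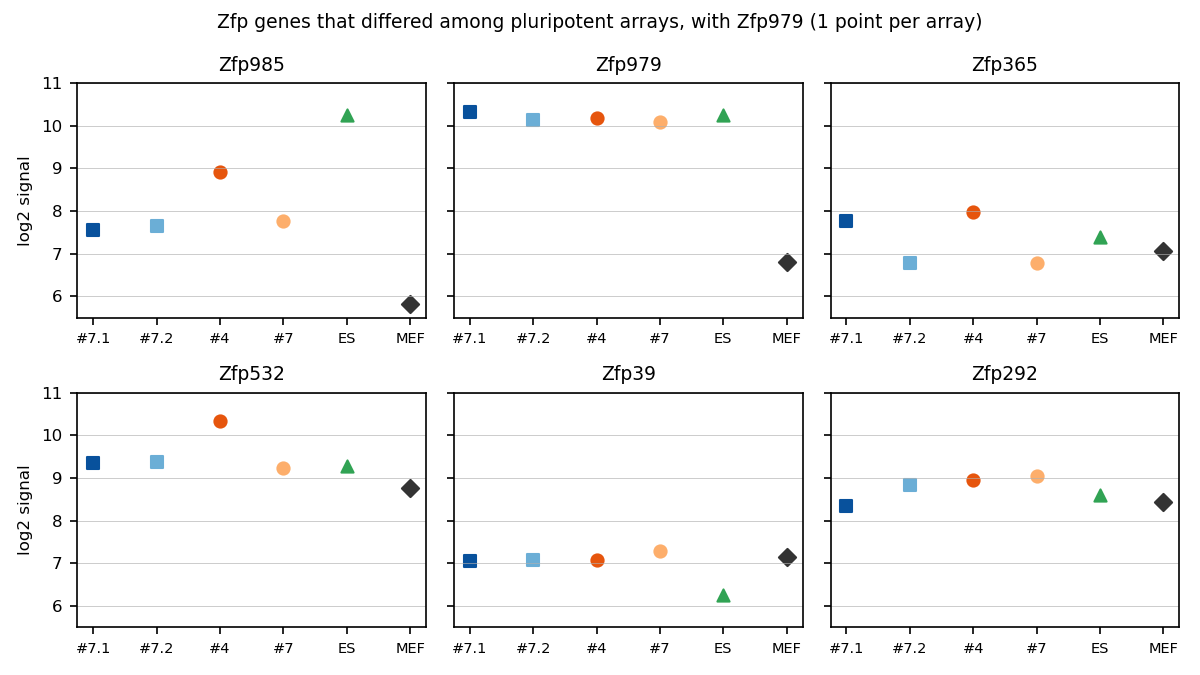
Log2 signal (vertical axis) of Zfp985, Zfp979, Zfp365, Zfp532, Zfp39 and Zfp292 on each of the 6 arrays (horizontal axis, 1 point per array). Zfp985 is at 10.25 in ES cells and 7.57 to 8.91 in iPS lines, while Zfp979 is level across pluripotent arrays, and Zfp365 separates lines #4 and #7.1 from lines #7 and #7.2.

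The genes were placed on the chromosomes by the RefSeq table. Chromosome 7 held 32 of the 137, chromosome 17 held 15 and chromosome 13 held 10. There were 15 pairs of adjacent protein-coding genes within the set, formed by 27 genes. Their differences from MEFs had the same sign in 8 of the 15 pairs. In 1 pair, Zfp985 and Zfp979, both genes were called, in 7 pairs 1 gene was and in 7 pairs none. Next to Zfp637, which was lower by −2.12, stood Zfp239 with 0.34, and next to Zfp672 (−2.03) stood Zfp692 with 0.73. On chromosome 18 Zfp35 (1.23) lay beside Zfp397 (−0.82), and on chromosome 7 Zfp553 (1.07) lay beside Zfp771 (−0.57). Some genes of these pairs passed the threshold on 1 side only, so the rule had fixed their direction against MEFs. Among them were Zfp985, Zfp35 and Zfp553 (pluripotent arrays only) and Zfp672 and Zfp397 (MEF array only). No same-sign share is given for adjacent genes in general, so these counts cannot show whether neighbors moved together.

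**Figure D5:**
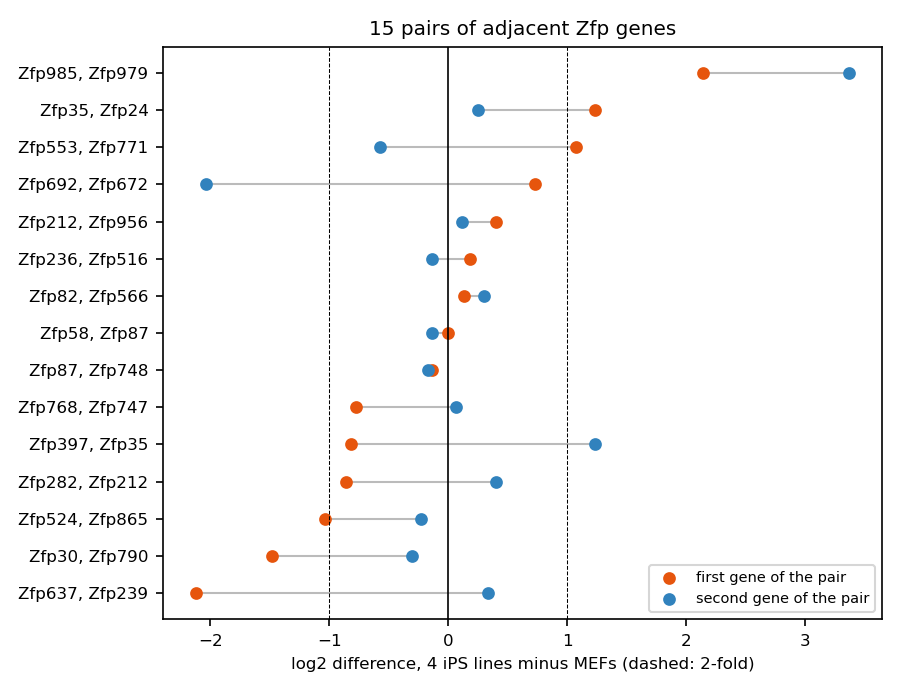
Log2 difference between the 4 iPS lines and FAH-/- MEFs (horizontal axis, dashed lines at 2-fold) for the 15 pairs of adjacent Zfp genes (rows). Points joined by a line are the first and second gene of a pair, and the pair of Zfp985 and Zfp979 stands at 2.14 and 3.37.

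Promoter sequences were found for 110 of the 137 genes, as 138 windows of 300 bases. Each motif was searched on both strands, and no motif contains another. The ETS motif CCGGAAG was in 18.1% of the Zfp windows and in 8.86% of all 32851 windows, and CCAAT was in 48.6% and 37.4%. TATAAA was in 5.8% and 13.6%, and the E-box CACGTG in 7.97% and 7.15%. The Zfp windows held a median of 18 CpG dinucleotides and all windows 7. These are descriptions of sequence, and matches are not binding sites.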

How the data were processed

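Total RNA (400 ng per sample) was linearly amplified with 12 h of in vitro transcription and hybridized. The authors exported intensity per probe from BeadStudio (version not given in the sources used here), before background subtraction, and deposited a table of background-subtracted, cubic spline normalized intensity. Here the exported intensity went through normexp with an offset of 50 and quantile normalization in limma 3.58.1 under R 4.3.3, and was expressed as log2. Background on each array was the exported signal where the deposited normalized intensity was 0, and a probe counted as above it by 2.326 noise SDs. The probe with the highest mean signal stood for a gene. MEFs and ES cells, with 1 array each, were compared with the 4 iPS lines in 1 limma fit (3 residual degrees of freedom, the lone arrays assumed to vary like the lines), and corrected with uncorrected lines in a further fit, which had 2 such degrees. Benjamini-Hochberg adjustment ran over all genes. An "at least" fold was set against the lowest normalized signal above background. The steps were tested on simulated data. Depth of an array has no read count, and the number of arrays limits precision.

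The genes, lists and tests were chosen with earlier results of these data known. Named were genes of 3 role lists, called genes above 150 on both sides, genes at least 2-fold apart between lines, the 6 highest of each 1-sided class, those nearest the threshold, probes that disagree and the steadiest genes. Others were chosen after their values were seen. Background correction, scaling, probe choice, filters, the deposited normalized intensity plus 50 and left-out lines were tried as alternatives. Protein sequences were not analysed here.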

Additional observations from a re-analysis of the deposited data

Results flagged for a closer look

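Of the named Zfp genes, 4 had 1 iPS line far from the other lines on the log2 scale. Zfp532 was at 10.34 and Zfp985 at 8.91 in line #4, each the highest of the 4 lines, and the gap to the next line took 0.87 and 0.86 of the whole range. Zfp277 was lowest in line #4, at 9.69, and Zfp131 was lowest in line #7.1, at 9.37. A dimmer second probe of Zfp277 was lowest in line #7, at 6.16, against 6.32 in line #4. The second Zfp131 probe did not set line #7.1 apart, with 9.328 there and 9.330 in line #7, whereas both Zfp532 probes were highest in line #4. Chance alone sets 1 sample this far apart in about 1 of 20 groups of 4 independent samples. Every line but #4 was line #7 or a subclone of it, so this rate does not apply to these lines. Zfp532 and Zfp985 were also among the genes named for being at least 2-fold apart between lines #4 and #7. The part of descent in these gaps was not tested. The check covered 44 named genes, and over all 137 genes 12 had such a line.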

How the results depend on the processing

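Against MEFs the 22 called Zfp genes became 37 with a normexp offset of 16 and 15 without background correction, where Zfp35, Zfp451, Zfp459, Zfp524, Zfp553, Zfp869 and Zfp943 were not called. Shares over all genes under these settings are not given here, so these counts do not set Zfp genes apart from other genes. Against ES cells the count of 1 became 2 with that offset (Zfp39 and Zfp870, not Zfp985), with the mean of all probes (Zfp330 and Zfp985) and with the deposited normalized values plus 50 (Zfp39 and Zfp985), and 0 with lines #4 and #7 alone, where 41 genes in all were called in place of 105. With median scaling the split against ES cells was 68 higher and 40 lower, in place of 47 and 58. For corrected against uncorrected lines, leaving out 1 line gave 0 to 29 genes and 0 to 1 Zfp gene, the highest without line #7, where line #4 alone was uncorrected. Line #7.1 against line #7 had 118 genes apart at 1.5-fold, and at 2-fold 5 without background correction, 78 with the offset of 16 and 22 with the deposited values, in place of 10. Of its Zfp genes 2 were apart at 1.5-fold, and 1, Zfp365, at 2-fold with the offset of 16, with median scaling and with the deposited values, in place of 0. Line #7.2 against line #7 had 36 genes at 1.5-fold, and 37 with the offset, 2 with median scaling and 5 with the deposited values, in place of 1. Line #4 against line #7 had 332 genes at 1.5-fold, and 22 without background correction, 140 with the offset, 64 with median scaling and 64 with the deposited values, in place of 39, with 8 Zfp genes at 1.5-fold and 5 with the offset, in place of 3. The cause of these shifts was not tested, except that a lower fold counts more genes. Across 27 log2 differences of named genes none changed sign under up to 13 alternatives, 311 kept their side of the threshold, 13 fell below it and 18 passed it, most of them genes near 2-fold such as Zfp943, Zfp869 and Zfp472. The rule kept 97 genes at an exported signal above 200, and 95 on the normalized scale at the level that 150 has in line #7, an alternative chosen after seeing the data. No paired analysis was possible because the replicate numbers are names of lines that no other group shares as a pair. Dim genes near background carry only small differences after the offset.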
